A study of Rattus norvegicus with 14 samples.

Results

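The genes described here encode proteins that the liver secretes into the blood: the acute phase proteins, the carriers of hormones, vitamins and metals, and the factors of coagulation and complement. They were chosen by gene symbol from a list of 43, and every probe set whose platform annotation named 1 of these symbols alone was taken. Of the 43 genes, 36 had a probe set and were measured, among 3181 genes or unnamed probe sets on the array. The other 7 (Tf, Fetub, Hrg, Kng1, Serpinc1, C4a and Cfi) had no probe set of their own and are not described as members. The 36 genes were read by 59 probe sets, 20 genes by 1 and 16 by several, and the probe set with the highest mean signal stood for the gene. All 36 passed the filter on low signals and were tested among 1909 features.

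Hepatocytes make most of the protein in plasma. When tissue is injured or infected, interleukin-6 and interleukin-1 reach the hepatocyte, and the transcription factors STAT3 and C/EBP beta raise the transcription of the positive acute phase genes, among them those for fibrinogen, haptoglobin, alpha-1-acid glycoprotein and serum amyloid P. The negative acute phase genes, such as those for albumin and transthyretin, are lowered at the same time. In the rat the protein that rises most is alpha-2-macroglobulin (A2m), and C-reactive protein (Crp) is made at a high level even in healthy animals.

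Liver RNA of Wistar and Kyoto rats was hybridised to Affymetrix arrays, 14 arrays in 6 groups. Orotic acid, a pyrimidine precursor that makes the rat liver fatty, was mixed into the chow at 1%. There were 3 arrays of Wistar controls on plain chow, 2 of Wistar rats fed orotic acid for 3 days, 3 of Wistar rats fed it for 14 days, and 2 arrays each of Kyoto rats fed it for 1, 3 and 14 days. Unfed Kyoto rats and a Wistar group at day 1 appear in the extraction protocol and were not analysed here, so the effect of the Kyoto strain and of its response to the diet cannot be told apart. The sources used here give no age, sex or Kyoto substrain. The strains were compared over days 3 and 14 together, called fed Kyoto and fed Wistar below, and the strain by time interaction is the strain difference at day 14 minus that at day 3. The labels do not say in so many words that each array is a separate animal, and the p-values measure the spread between these arrays. In whole liver, fewer hepatocytes and less RNA per hepatocyte cannot be told apart.

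The promoters of 4 of these genes are shown because their genes mark the range of the results: Orm1, the member that differed between the strains, Vtn, the next by p, and Fgb and Alb, a positive and a negative acute phase gene with small spans after normalization. Each sequence is the 250 bases before the start of the gene in RefSeq (GRCr8), 5′ to 3′ on the gene's own strand. Capitals mark matches to 3 motifs searched on both strands: the STAT motif TTCNNNGAA, the C/EBP motif TTGCNNAA and the HNF1 motif GTTAAT. Orm1 lies at chr5:81788259-81788508, plus strand. Vtn lies at chr10:63892532-63892781, plus strand. Fgb lies at chr2:170700876-170701125, minus strand, and Alb at chr14:17906980-17907229, minus strand.
Orm1: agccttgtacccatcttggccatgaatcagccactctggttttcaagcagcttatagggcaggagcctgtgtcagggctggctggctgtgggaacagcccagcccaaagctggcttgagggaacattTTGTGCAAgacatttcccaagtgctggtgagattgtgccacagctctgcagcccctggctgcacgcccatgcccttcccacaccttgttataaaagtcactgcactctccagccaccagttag
Vtn: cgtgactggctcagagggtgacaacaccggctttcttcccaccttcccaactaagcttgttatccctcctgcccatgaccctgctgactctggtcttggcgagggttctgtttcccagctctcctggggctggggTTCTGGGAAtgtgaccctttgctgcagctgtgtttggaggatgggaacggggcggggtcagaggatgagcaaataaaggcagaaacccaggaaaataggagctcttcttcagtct
Fgb: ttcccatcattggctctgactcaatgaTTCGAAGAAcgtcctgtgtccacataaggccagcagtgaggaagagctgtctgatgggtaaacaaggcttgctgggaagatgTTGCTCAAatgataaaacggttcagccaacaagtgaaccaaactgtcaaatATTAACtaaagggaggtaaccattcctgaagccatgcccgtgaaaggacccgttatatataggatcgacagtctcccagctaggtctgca
Alb: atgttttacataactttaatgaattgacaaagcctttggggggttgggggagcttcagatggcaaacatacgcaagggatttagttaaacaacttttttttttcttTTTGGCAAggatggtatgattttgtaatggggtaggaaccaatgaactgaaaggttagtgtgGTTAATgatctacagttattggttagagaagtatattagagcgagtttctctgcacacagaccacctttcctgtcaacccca

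In the Orm1 promoter the match was to the C/EBP motif, 123 to 116 bases before the start on the minus strand. In the Vtn promoter it was to the STAT motif, 115 to 107 bases before the start. The Fgb promoter held all 3, with the STAT match at 223 to 215, the C/EBP match at 141 to 134 and the HNF1 motif at 90 to 85 bases before the start. The Alb promoter held a C/EBP match at 144 to 137 and an HNF1 motif at 82 to 77 bases before the start. Of the 36 measured members 31 had a promoter entry. The C/EBP motif was in 12 of these (38.7%) against 9.22% of all 33469 promoters, and it was in 8 of 14 positive acute phase genes, 3 of 5 negative ones and 1 of 12 other plasma protein genes. The STAT motif was in 7 of 31 (22.6%, against 7.67% of all), and the HNF1 motif in 9 of 31 (29.0%, against 6.45%). For all 3 motifs, members were counted by gene and the background by promoter entry. A gene with several entries could have more chances of a match, so these percentages are not in like units. A match is a run of letters, and binding was not measured.

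The values are log2 signals after quantile normalization, with a floor at 6.85, and the arrays' median signals as deposited ran from 268.3 to 284.8. The array labelled Wistar control 2 went against its label. Its best correlation was with a Kyoto array, replicate 2 of day 3, at r = 0.960 (genes are not independent). Its signals of Ces2e and Mst1, named here because earlier results set them apart between the strains, were 6.85 and 7.33, where the other controls had 10.09 and 10.76 for Ces2e and 11.10 and 11.07 for Mst1. Replicate 1 of Kyoto day 1 stood farthest from the rest, with a median correlation of 0.895. The members' main differences from the Wistar controls, and those over time in Kyoto rats, are given with and without these arrays. Blank rows were on Kyoto day 1 replicate 1 (374), Wistar control replicate 3 (374) and Wistar day 14 replicate 3 (375), called the arrays with blank rows below. The tissue's hepatocyte markers were high everywhere, with a summed log2 signal of 9 markers between 15.58 and 16.05, and the 2 bile duct markers were at or near the floor (summed 7.85 to 7.90).

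Most members had normalized group means close to each other, and many were read near the top of the scale. Of the 59 member probe sets 35 were among the 206 with the highest mean signal, the top 5% of all. The members' share of the summed deposited signal ran from 9.94% to 14.1%. The difference between the highest and the lowest of the 6 group means had a median of 0.35 log2 over members and 0.63 over all features tested, and it was under 0.5 log2 in 27 of 36 members (75.0%), against 33.1% of all features. By class, 12 of 18 positive acute phase genes, 5 of 6 negative ones and 10 of 12 other plasma protein genes lay under 0.5. Among features with a mean log2 signal of 13 or more, the 19 members had a median replicate SD of 0.13, and the 84 other features 0.23. At that level 18 of the 19 members (94.7%) and 53 of the 84 others (63.1%) lay under 0.5. The share of all features thus includes many dimmer ones.

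How even the members were depended on the scaling. Quantile normalization gives every array the same set of values, so the most abundant transcripts can move only between the top few. As deposited, the signal of Alb ran from 15953 on Wistar day 14 replicate 2 to 46656 on Wistar day 14 replicate 3, while its normalized log2 signal stayed between 14.37 and 14.72, the highest value on the scale. With the arrays scaled to a common trimmed mean instead, 26 of 36 members (72.2%) kept group means within 0.5 log2, against 30.6% of all features. On the deposited scale, 15 of 35 (42.9%) did, against 27%, and with either scaling the members' share was above that of all features.

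**Figure D1:**
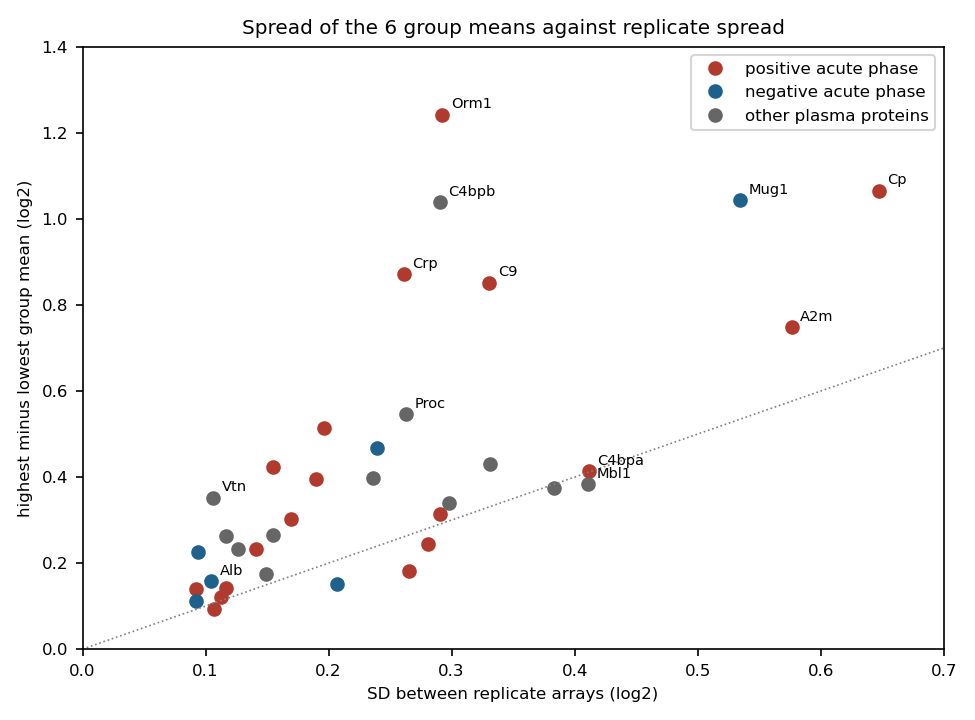
Each point is 1 of the 36 genes, placed by the SD between replicate arrays (x axis, log2) and by the highest minus the lowest of the 6 group means (y axis, log2), coloured by class, with a dotted line where both are equal. Orm1 is highest at 1.24, and C4bpb, Cp and Mug1 also exceed 1, but Cp and Mug1 have replicate SDs of 0.65 and 0.53.

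After normalization, the members with the smallest spans of group means included albumin, haptoglobin, hemopexin, fetuin-A and the alpha and beta chains of fibrinogen. Alb, the main carrier and oncotic protein of plasma, had group means from 14.45 (Kyoto day 3) to 14.61 (Wistar day 3). Hp, haptoglobin, which binds free haemoglobin, ran from 14.27 to 14.59 over all 14 arrays, and Hpx, which binds free haem, from 14.12 to 14.44. Fga and Fgb, the alpha and beta chains of fibrinogen, spanned 0.09 and 0.14 log2 over their group means, while Fgg, the gamma chain, spanned 0.31, and Ahsg, fetuin-A, a mineral-binding protein, spanned 0.11. The replicate SDs of these genes were 0.09 to 0.12 log2 except for Fgg (0.29). The deposited signals were not level: that of Hp ran from 14037 to 43024, of Hpx from 14853 to 30116, of Ahsg from 14884 to 41045, of Fga from 9350 to 19464 and of Fgb from 11516 to 24954. Of the 19 members with a mean of 13 or more, 18 had group means within 0.5 log2 after normalization and 8 had as deposited. Of the 84 other features at that level, 53 (63.1%) had after normalization and 18 (21.4%) as deposited. A small span here therefore describes the normalized values. One of the Alb probe sets was at the floor on all 14 arrays, and the others read 13.83 to 14.72. The spans given are those of the probe set that stood for each gene. For Fga it ran from 13.43 to 13.72 over the arrays, and 2 others ran wider, from 12.96 to 13.68 and from 11.21 to 12.59. For Ahsg it ran from 14.31 to 14.59, and the other ran from 13.92 to 14.33. Serpina1, alpha-1-antitrypsin, C3, the central complement component, Gc, the vitamin D carrier, and Ambp, the precursor of alpha-1-microglobulin and bikunin, spanned 0.23 to 0.30 log2.

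Fgb illustrates the precision for a positive acute phase gene with a small span. Its log2 signals were 13.99, 13.98 and 13.74 in Wistar controls, 13.82 and 13.70 at Wistar day 3, and 13.90, 13.88 and 13.63 at Wistar day 14. In Kyoto rats they were 13.69 and 13.85 at day 1, 13.83 and 13.79 at day 3, and 13.74 and 13.85 at day 14. Every group overlapped the others. The 95% interval of the day 3 difference in Wistar rats was -0.45 to 0.16 log2, and that of the strain difference was -0.20 to 0.25. The first was -0.45 to 0.24 without the array labelled Wistar control 2.

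**Figure D2:**
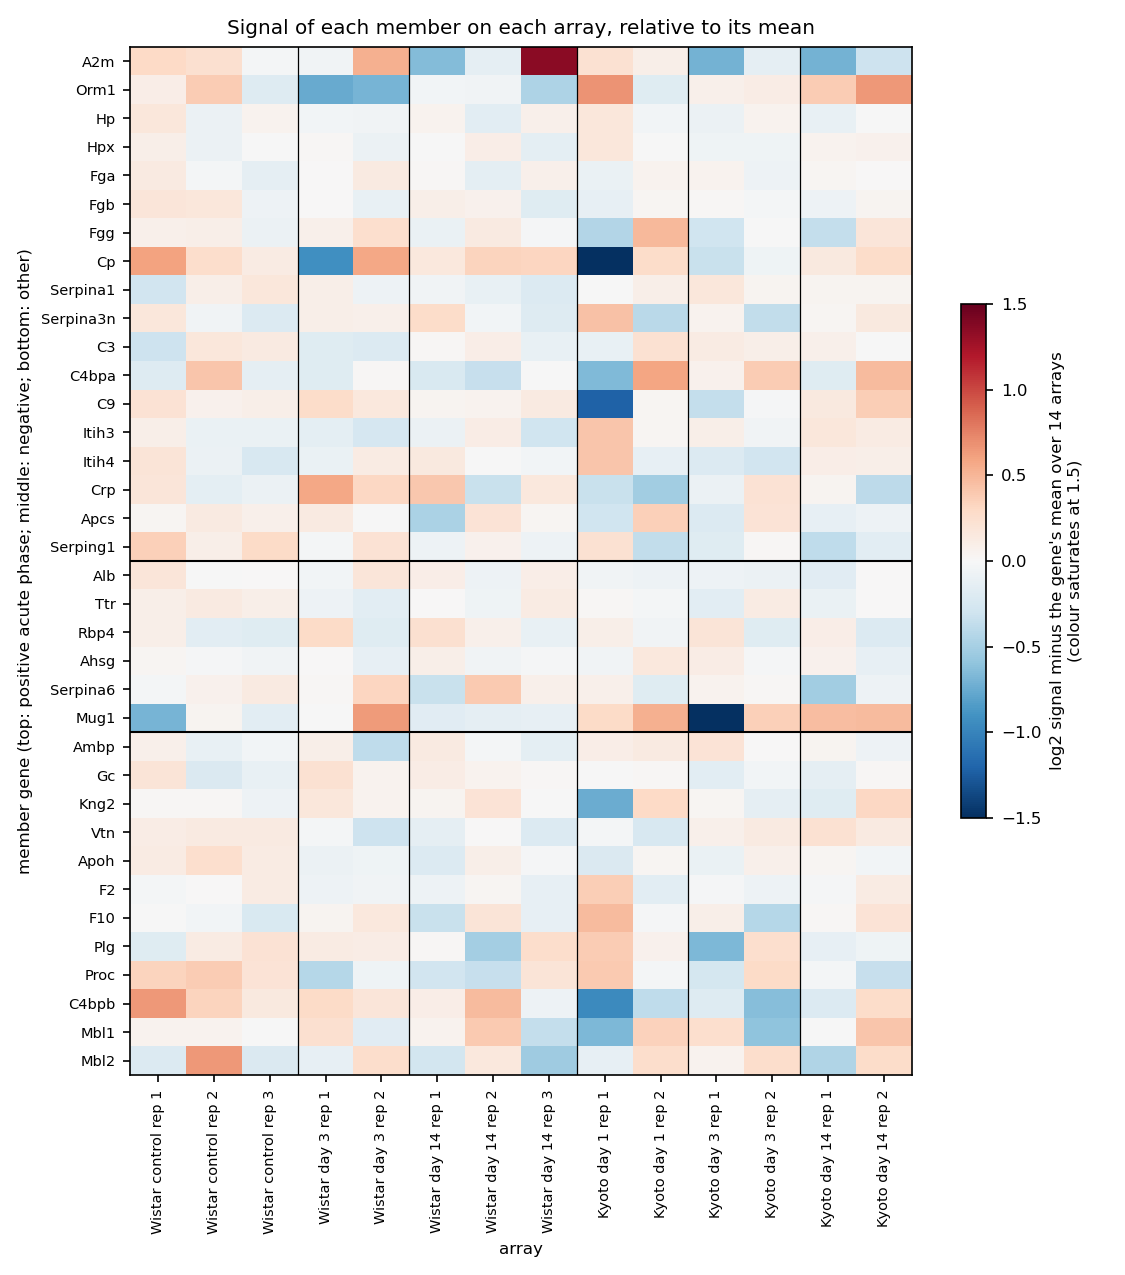
Each row is a gene and each column an array, and the colour is the log2 signal minus the gene's mean over the 14 arrays, with lines between the 3 classes and the 6 groups. Most rows are pale, and strong colours fall in A2m on Wistar day 14 replicate 3, in Cp and C9 on Kyoto day 1 replicate 1, and in Mug1 on Kyoto day 3 replicate 1.

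Among the acute phase genes, Orm1 varied most over the groups. It encodes alpha-1-acid glycoprotein, a plasma carrier of basic drugs and steroids. Its log2 signals were 13.42, 13.70 and 13.13 in Wistar controls, 12.56 and 12.62 at Wistar day 3, and 13.28, 13.27 and 12.85 at Wistar day 14. In Kyoto rats they were 13.99 and 13.13 at day 1, 13.40 and 13.43 at day 3, and 13.70 and 13.97 at day 14. Wistar day 3 was the lowest group, below every other array, and Kyoto day 14 had the highest mean, 2.37-fold above it. The order of the group means was Wistar day 3 (12.59), Wistar day 14 (13.13), Kyoto day 3 and Wistar control (both 13.42), Kyoto day 1 (13.56) and Kyoto day 14 (13.83); at unrounded means Kyoto day 3 came below Wistar control. Wistar day 3 did not overlap Wistar day 14, nor Wistar day 14 Kyoto day 3, and the other neighbours in this order overlapped.

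Orm1 was higher in orotic acid-fed Kyoto than in orotic acid-fed Wistar rats. The 4 Kyoto arrays of days 3 and 14 lay between 13.40 and 13.97 (mean 13.62 ± 0.26, SD) and the 5 Wistar arrays between 12.56 and 13.28 (mean 12.92 ± 0.34, SD), with no overlap. Vtn was the only other member higher without overlap (2 of 36, against 5.08% of all features), and 0 members were lower without overlap (3.77% of all). The difference of Orm1 was 0.76 ± 0.18 log2 (SE, 95% interval 0.38 to 1.15), or 1.70-fold (limma, adjusted p = 0.0324). It was 0.82 at day 3 and 0.70 at day 14, and the test of whether it changed between these days gave -0.12 ± 0.36 (adjusted p = 0.967). Orm1 was the only member called, 1 of 36, where 62 of 1909 features (3.25%) were called in either direction and 1.26% were called higher in Kyoto; 2 of 36 had an unadjusted p under 0.05, against 14.4%. Whether the Orm1 probe set reads the RNA of either strain equally well was not tested.

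The call on Orm1 was close to the threshold. The difference stayed between 0.68 and 0.83 log2 when single arrays were left out, and 7 of the 14 fits passed. It failed without either Kyoto day 3 array (adjusted p = 0.119 and 0.101), either Kyoto day 14 array (0.0978 and 0.144), either Wistar day 3 array (0.116 and 0.0996) or Wistar day 14 replicate 3 (0.0609). Without the array labelled Wistar control 2, which is in neither group compared, it was 0.75 (adjusted p = 0.0245). On the deposited scale it was 0.73 (adjusted p = 0.0922) and with a block for the lot batch 0.64 (adjusted p = 0.14). These values are all of Orm1.

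Macrophage markers moved with the same contrast. Of 5 tested markers 4 were higher in fed Kyoto arrays, and Clec4f, a Kupffer cell lectin, was called (1.76-fold, adjusted p = 0.0418). The summed log2 signal of the 5 was 11.86 to 12.34 on the fed Wistar arrays and 12.35 to 12.65 on the fed Kyoto arrays, with no overlap, while the hepatocyte sums were 15.58 to 16.05 and 15.81 to 16. The endothelial sums also did not overlap (8.68 to 8.84 and 9.15 to 9.41). Of 2 endothelial markers tested, 2 were higher, 0 were called and 2 had an unadjusted limma p under 0.05. The sums of the 2 pancreas markers did not overlap either (9.27 to 9.74 and 10.09 to 10.42). Only 1 of these 2 was higher, and it was called, while the other was lower. The stellate sums (12.51 to 13.25 and 12.56 to 13.08) and the erythroid sums (13.21 to 13.70 and 13.04 to 13.98) overlapped. The part of these cells in the Orm1 difference was not tested. No leukocyte marker of the list used had a probe set of its own.

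Between Wistar controls and day 3, Orm1 differed by -0.83 ± 0.24 log2 (1.77-fold lower, adjusted p = 0.251), with all 3 control arrays above both day 3 arrays. Without the array labelled Wistar control 2 the Orm1 difference was -0.68 (adjusted p = 0.531). Without the 3 arrays that had blank rows it was -0.95 and passed (adjusted p = 0.0425). From day 3 to day 14 in Wistar rats Orm1 differed by 0.54 ± 0.24 (adjusted p = 0.993), and from day 3 to day 14 in Kyoto rats by 0.42 ± 0.26 (adjusted p = 0.969), without overlap in either strain.

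**Figure D3:**
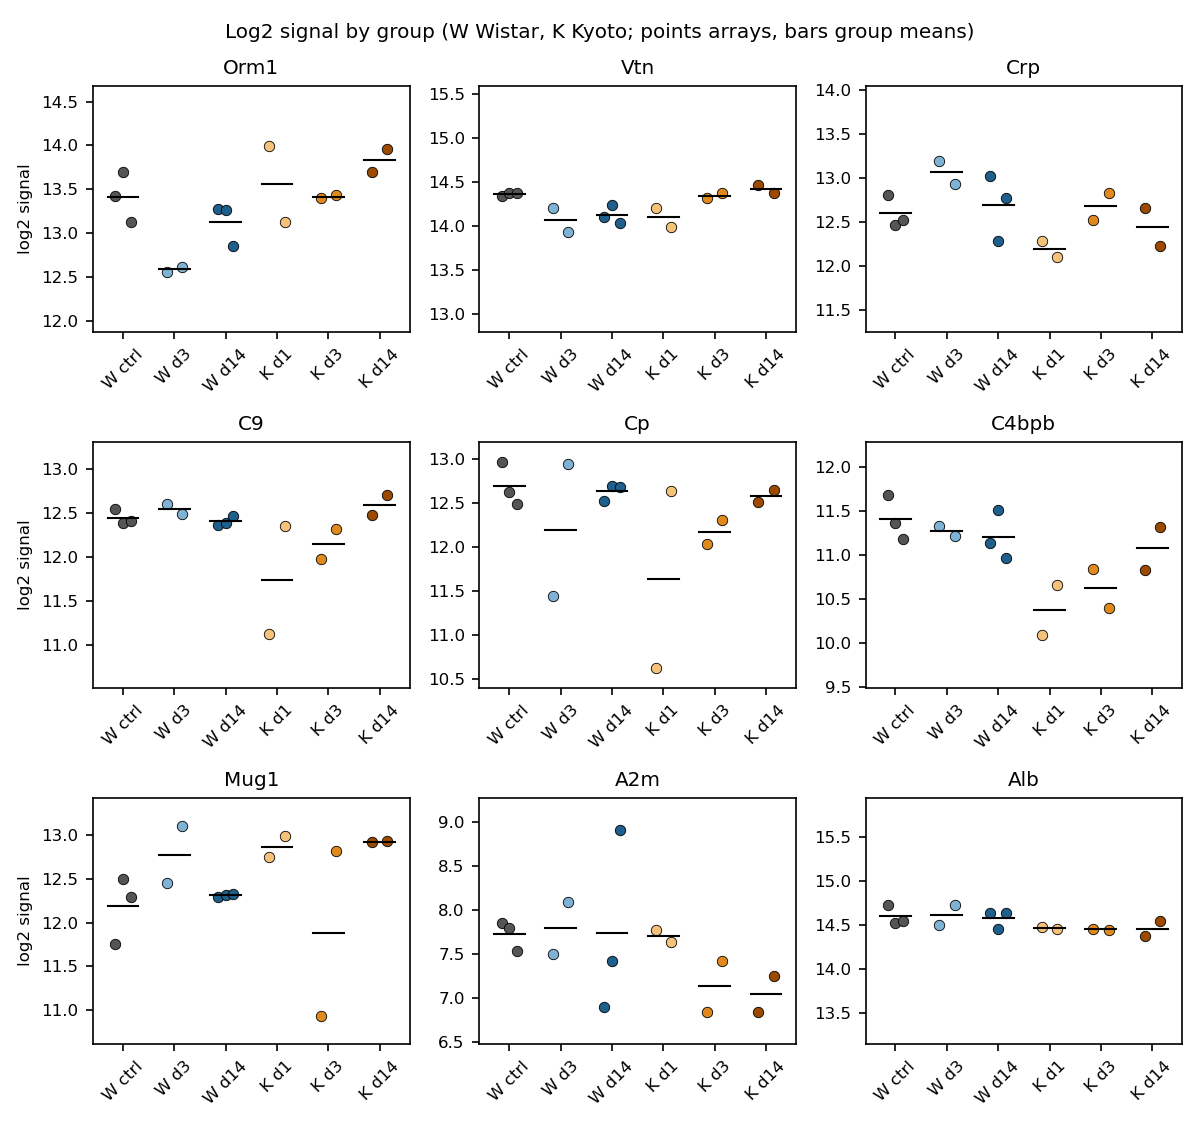
Each panel plots the log2 signal of 1 gene by group (W Wistar, K Kyoto), with a point for each array and a bar at the group mean, on axes of equal height. Both Wistar day 3 points of Orm1 lie below all others, Alb is flat, and the wide means of C9, Cp and Mug1 come from groups whose 2 arrays are far apart.

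A2m, the major acute phase protein of the rat and an inhibitor of proteases, stayed near the floor. Its log2 signals were 7.85, 7.79 and 7.53 in Wistar controls, 7.5 and 8.09 at Wistar day 3, and 6.90, 7.42 and 8.91 at Wistar day 14. In Kyoto rats they were 7.78 and 7.64 at day 1, 6.85 and 7.42 at day 3, and 6.85 and 7.25 at day 14. The single high value was that of Wistar day 14 replicate 3, and on that array the second A2m probe set, with 7.82, was within its own range of 6.85 to 8.22. A2m differed by 0.02 ± 0.40 log2 between Wistar day 14 and control (95% interval -0.85 to 0.89) and by -0.68 ± 0.34 between the fed strains (adjusted p = 0.39). With so low a signal A2m passed the filter narrowly, and it was not tested on the deposited scale or without the array labelled Wistar control 2.

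Crp, C-reactive protein, a pentraxin that binds phosphocholine, gave 12.80, 12.47 and 12.53 in Wistar controls, 13.20 and 12.93 at Wistar day 3, and 13.02, 12.28 and 12.77 at Wistar day 14. In Kyoto rats the signals were 12.29 and 12.10 at day 1, 12.53 and 12.84 at day 3, and 12.66 and 12.22 at day 14. Both Wistar day 3 arrays lay above the 3 controls, and both Kyoto day 3 arrays above those of day 1. The Crp differences were 0.47 ± 0.23 log2 (adjusted p = 0.516; 0.40 without the array labelled Wistar control 2) and 0.49 ± 0.26 (adjusted p = 0.788; 0.58 without Kyoto day 1 replicate 1), so neither passed. The 2 other Crp probe sets read 6.85 to 8.88 and had their lowest value, the floor, on Kyoto day 1 replicate 1. On Kyoto day 1 replicate 2 they read 8.88 and 8.13, each above both Kyoto day 3 arrays. In these probe sets Kyoto day 1 and day 3 thus overlapped.

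The remaining positive acute phase genes were not called in any comparison, where at most 3.25% of all features were. Serpina3n, a serine protease inhibitor of the antichymotrypsin family, ran from 12.59 to 13.43, and both extremes were on the Kyoto day 1 arrays. In Wistar rats it differed by 0.11 ± 0.24 log2 at day 3 and by 0.04 ± 0.21 at day 14. C3 differed by -0.20 ± 0.16 at day 3 and by 0.00 ± 0.14 at day 14. Hp differed by -0.09 ± 0.13 and by -0.06 ± 0.11 at these times, and its interval at day 14 was -0.30 to 0.19. Without the array labelled Wistar control 2, the differences at days 3 and 14 were 0.09 and 0.03 for Serpina3n, -0.11 and 0.09 for C3, and -0.16 and -0.12 for Hp. Apcs, serum amyloid P, spanned 0.18 log2 over its group means, Serping1, the C1 inhibitor, 0.51 (-0.27 ± 0.20 between Wistar day 14 and control, and -0.34 without the array labelled Wistar control 2), and Itih3 and Itih4, heavy chains that bind hyaluronan, 0.42 and 0.39. C4bpa, a chain of the C4b-binding protein, spanned 0.41, as large as its replicate SD.

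Of the 6 negative acute phase genes measured, none was called in any of the 8 comparisons, where at most 3.25% of all features were. Ttr, which carries thyroxine and the retinol-binding protein, had 14.50, 14.54 and 14.50 in Wistar controls, 14.33 and 14.24 at Wistar day 3, and 14.42, 14.34 and 14.53 at Wistar day 14. Both day 3 arrays lay below the 3 controls (-0.23 ± 0.12 log2, adjusted p = 0.544). Alb differed by 0.01 ± 0.12 at day 3 and -0.02 ± 0.11 at day 14 in Wistar rats, and by -0.14 ± 0.09 between the fed strains (95% interval -0.34 to 0.05). Serpina6, the corticosteroid-binding globulin, differed by 0.11 ± 0.22 and -0.01 ± 0.20 in Wistar rats and by -0.24 ± 0.16 between the fed strains. Without the array labelled Wistar control 2, the day 3 difference of Ttr was -0.21, those of Alb at days 3 and 14 were -0.02 and -0.05, and those of Serpina6 0.12 and -0.01. Rbp4, the retinol carrier, spanned 0.15 log2 over its group means.

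Mug1, murinoglobulin, a protease inhibitor related to A2m, had the widest replicate gap of this class. Its signals were 11.76, 12.49 and 12.29 in Wistar controls, 12.45 and 13.10 at Wistar day 3, and 12.29, 12.32 and 12.33 at Wistar day 14. In Kyoto rats they were 12.74 and 12.99 at day 1, 10.94 and 12.82 at day 3, and 12.92 and 12.93 at day 14. The low value was that of Kyoto day 3 replicate 1 alone. From day 3 to day 14 in Kyoto rats Mug1 differed by 1.04 ± 0.44 log2 (adjusted p = 0.969), which became 0.11 without Kyoto day 3 replicate 1 and 1.97 without replicate 2. The strain by time interaction of Mug1 was 1.51 ± 0.60 (adjusted p = 0.854). Mug1 has near-identical relatives, and its level is uncertain between them.

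Among the other plasma proteins, Vtn came nearest to a call. It encodes vitronectin, an adhesive glycoprotein that regulates the terminal complement complex and the plasminogen activator inhibitor. Its log2 signals were 14.34, 14.37 and 14.37 in Wistar controls, 14.20 and 13.92 at Wistar day 3, and 14.10, 14.24 and 14.03 at Wistar day 14. In Kyoto rats they were 14.20 and 13.99 at day 1, 14.31 and 14.37 at day 3, and 14.46 and 14.37 at day 14. The fed Wistar arrays all lay below the controls and below the Kyoto arrays of days 3 and 14.

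Vtn differed by 0.29 ± 0.10 log2 between the fed strains (1.22-fold, adjusted p = 0.135), by -0.30 ± 0.13 between Wistar day 3 and control (adjusted p = 0.428) and by -0.24 ± 0.12 between Wistar day 14 and control (adjusted p = 0.925). Without the array labelled Wistar control 2 the last 2 were -0.29 and -0.23. From day 1 to day 14 in Kyoto rats Vtn differed by 0.32 ± 0.14 (adjusted p = 0.455), and by 0.43 without Kyoto day 1 replicate 1 (adjusted p = 0.562). The first of these comparisons shares the fed Wistar arrays with the next 2. On the deposited scale the strain difference of Vtn was 0.18 (adjusted p = 0.775).

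Proc, protein C, a vitamin K-dependent anticoagulant, had 11.29, 11.34 and 11.17 in Wistar controls, 10.53 and 10.90 at Wistar day 3, and 10.67, 10.61 and 11.15 at Wistar day 14, with all fed arrays below the controls. The differences were -0.55 ± 0.26 log2 at day 3 (adjusted p = 0.487) and -0.46 ± 0.23 at day 14 (adjusted p = 0.963), and -0.51 and -0.42 for Proc without the array labelled Wistar control 2. Apoh, beta-2-glycoprotein I, a phospholipid-binding protein, lay below the controls in the same arrays, by -0.24 ± 0.15 and -0.21 ± 0.13 log2, and by -0.20 and -0.17 without that array. In a second Apoh probe set the groups overlapped. Its controls read 13.111, 13.205 and 13.085, Wistar day 3 replicate 2 read 13.148 and Wistar day 14 replicate 3 read 13.095. F2, prothrombin, spanned 0.17 log2 over its group means, F10, factor X, 0.40, and Plg, plasminogen, 0.43, the last with a replicate SD of 0.33. Mbl1 and Mbl2, the mannose-binding lectins that start the lectin pathway of complement, spanned 0.38 and 0.37 log2, less than their replicate SDs of 0.41 and 0.38.

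The largest gap between 2 replicates was at Kyoto day 1. Of the 36 members 13 (36.1%) differed by over 0.5 log2 between its arrays, against 48.1% of all features tested, while in the other 9 pairs of replicates 2 to 6 members did. Replicate 1 had the lowest signal of all 14 arrays in 8 members (Fgg, Cp, C4bpa, C9, Kng2, Apoh, C4bpb and Mbl1) and the highest, or in Hp an equal highest, in 10 (Orm1, Hp, Hpx, Serpina3n, Itih3, Itih4, F2, F10, Plg and Proc). Over all features tested, this array had the lowest value in 17.9% and the highest in 21.6%.

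The members low on that array included parts of complement and fibrinogen. Cp, the copper-carrying ferroxidase ceruloplasmin, read 10.62 there and 12.64 on replicate 2. C9, the pore-forming last component of complement, read 11.11 and 12.35, and Kng2, a kininogen, 12.50 and 13.53. Fgg read 12.45 and 13.37, whereas Fga (13.48) and Fgb (13.69) were there within their range on the other arrays. A second probe set was also lower on replicate 1 for Cp (9.02 and 10.37), Fgg (10.55 and 11.67) and Mbl1 (9.13 and 10.12), and a second probe set for F10 was also higher (11.76 and 11.20). The probe sets of Cp did not go together everywhere: the main one was also low on Wistar day 3 replicate 1 (11.45), where the second read 11.20, above all 3 controls.

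Differences from day 1 in Kyoto rats were measured against this pair. C9 had 11.97 and 12.31 at day 3 and 12.47 and 12.70 at day 14, and from day 1 to day 14 it differed by 0.85 ± 0.30 log2 (adjusted p = 0.373). Cp had 12.03 and 12.31 at day 3 and 12.51 and 12.65 at day 14, with a difference of 0.95 ± 0.52 (adjusted p = 0.57). C4bpb, the other chain of the C4b-binding protein, had 10.09 and 10.66 at day 1, 10.84 and 10.40 at day 3, and 10.83 and 11.31 at day 14, with a difference of 0.70 ± 0.30 (adjusted p = 0.454).

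Without Kyoto day 1 replicate 1, these differences were 0.23 for C9, -0.06 for Cp and 0.41 for C4bpb, and no member was called by limma. Without replicate 2, which leaves replicate 1 alone in its group and assumes that it varies as the other groups do, they were 1.47 for C9 (adjusted p = 0.00224), 1.96 for Cp (adjusted p = 0.0172) and 0.99 for C4bpb (adjusted p = 0.0914). Kng2 passed there too, by 0.80 ± 0.22 log2 (adjusted p = 0.0382), so 3 members were called where 8.43% of all features were. In that fit C9 differed by 1.03 log2 from day 1 to day 3.

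Counted over the whole set, no comparison other than that between the fed strains called a member by limma. Between Wistar day 3 and control 0 of 36 were called, and 0% of all 1909 features; 2 of 36 had an unadjusted p under 0.05 (10.5% of all features). The arrays did not overlap in 3 members higher at day 3 (Crp, F10 and Kng2; 14.6% of all features) and 7 lower (Orm1, Vtn, Proc, Ttr, Apoh, Itih3 and F2; 19.6%). When the array labelled Wistar control 2 was left out, 5 of 35 were higher (18.1% of all features) and 9 lower (25.9%). Between Wistar day 14 and control 0 of 36 were called (0% of all), none had an unadjusted p under 0.05 (5.19% of all), and 4 members did not overlap, all lower (Vtn, Proc, Apoh and Serping1; 6.34% of all lower and 3.61% higher), and the same 4 were lower without that array (9.59% of all). The 95% interval lay within 2-fold in both directions for 31 of 36 members at day 3 and for 36 of 36 at day 14, against 60.7% and 79.2% of all features.

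From day 3 to day 14 in Wistar rats 0 members were called (0% of all features), and 1, Orm1, had an unadjusted p under 0.05 (4.45% of all). Without overlap, Orm1, C3 and Ttr were higher (11.6% of all) and Mug1 and C9 lower (8.59%). In Kyoto rats 0 were called from day 1 to day 3 (0% of all) and 0 from day 3 to day 14 (0% of all), with Mug1 alone at an unadjusted p under 0.05 in each (5.81% and 4.61% of all). From day 1 to day 3, Crp and Vtn were higher without overlap (15.5% of all features) and Itih4, A2m, Hpx and Gc lower (12.6%). From day 3 to day 14, Mug1, Itih4, Orm1, C9, Hpx, Cp and Itih3 were higher (7 of 36, or 6 of 18 positive acute phase genes, against 18.8% of all features) and Serpina6 and C3 lower (23% of all). From day 1 to day 14 there 0 were called (0.0524% of all features) and 3, C9, C4bpb and Vtn, had such a p (10.1% of all). These 3 were also higher without overlap (19% of all), and A2m, Plg and Ambp were lower (19.1%). The strain by time interaction called 0 (0% of all), with Mug1 at an unadjusted p under 0.05 (5.13% of all) and 23 of 36 intervals within 2-fold (22.5% of all). The moderated F test over the 6 groups called 0 of 36, against 1.89% of all features. Orm1 (adjusted p = 0.123) and C4bpb (adjusted p = 0.198) had the smallest values in this limma test, and 2 of 36 (5.56%) were under 0.05 unadjusted, against 15.1% of all features.

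**Figure D4:**
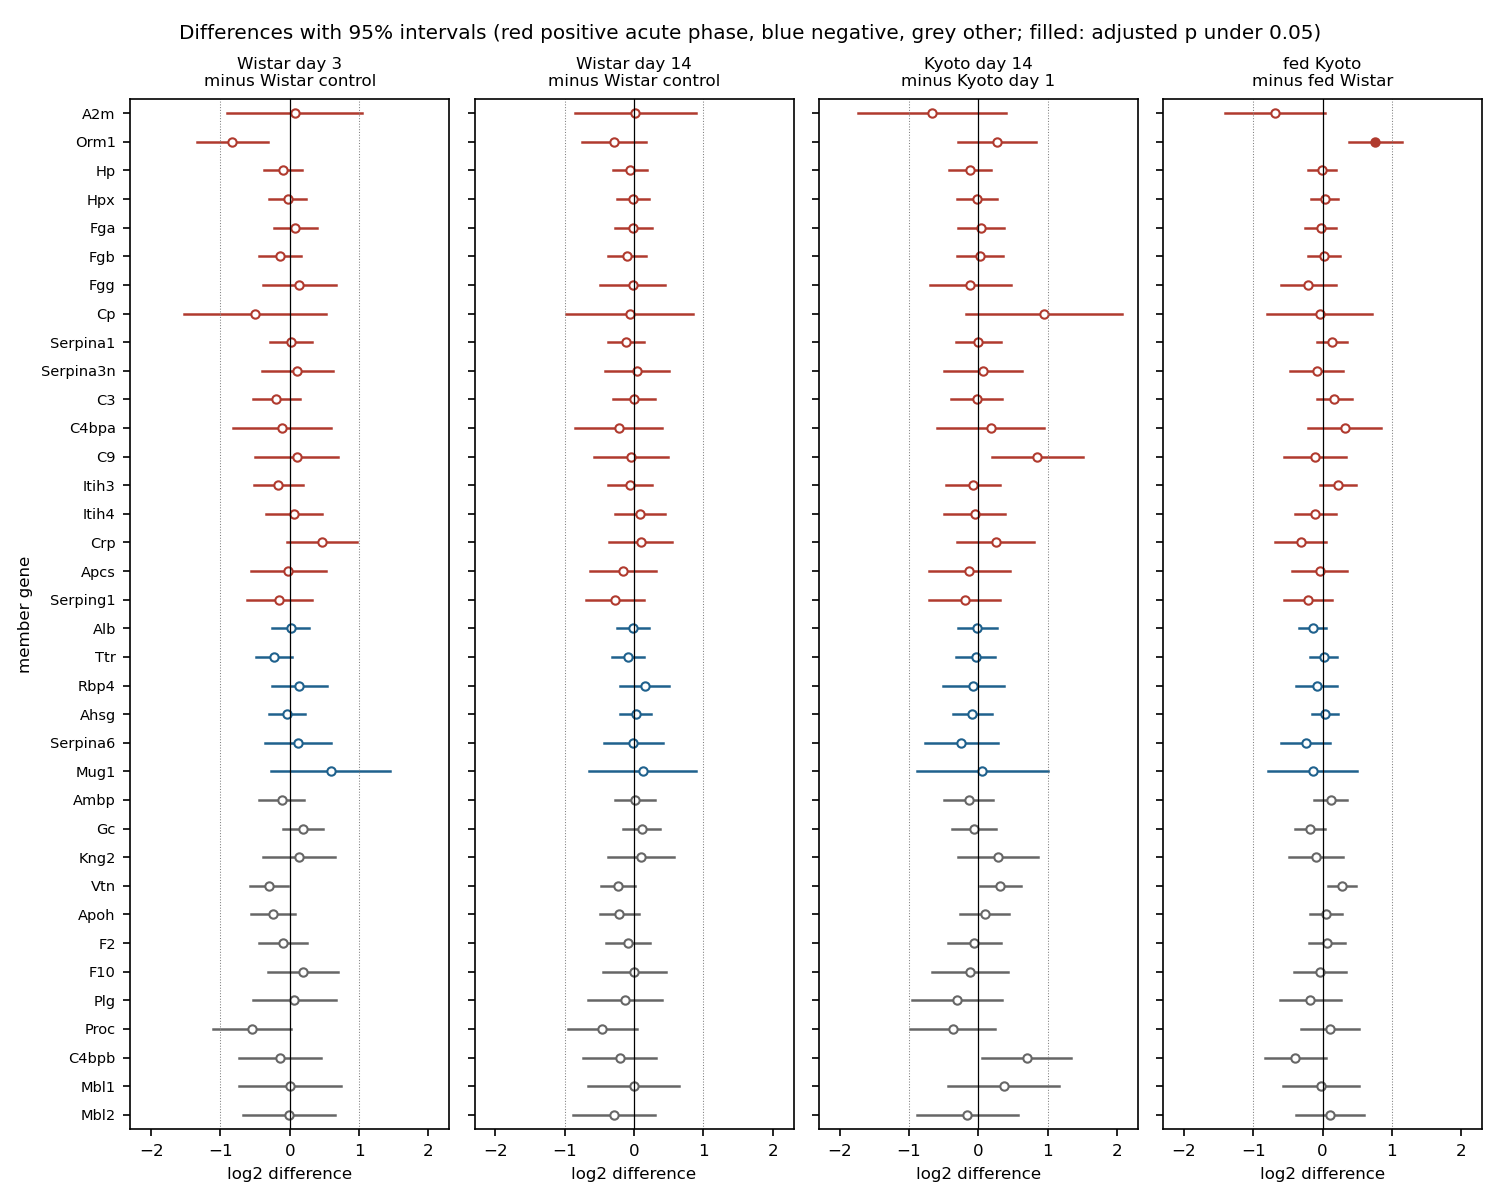
Points are log2 differences of the 36 genes in 4 comparisons and lines their 95% intervals from limma, with red for positive acute phase genes, blue for negative ones and grey for others; filled points passed an adjusted p of 0.05, and dotted lines mark a 2-fold difference. Only Orm1 in the fed Kyoto minus fed Wistar panel is filled, and at Wistar day 14 every interval stays inside the 2-fold lines.

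The 3 classes were compared by their medians. At Wistar day 3 the median log2 difference was -0.03 for the 18 positive, 0.06 for the 6 negative and -0.05 for the 12 other genes, beside -0.04 for all features tested. At Wistar day 14 the medians were -0.05, 0.01 and -0.11, beside -0.02 for all features. The class medians were 0.01, 0.03 and -0.05 at day 3 and -0.06, 0.01 and -0.06 at day 14 without the array labelled Wistar control 2. Positive genes were higher in 8 of 18 at day 3 and in 5 of 18 at day 14, and negative genes in 4 of 6 and 3 of 6. These signs depended on the scaling. On the deposited scale, where the median of all features itself moved to -0.18 at day 3, the members had a median of -0.36 at day 3 (2 higher and 33 lower of 35) and of -0.20 at day 14 (0 higher and 35 lower). With a common trimmed mean they had -0.12 (13 higher and 23 lower of 36) and -0.11 (7 higher and 29 lower). Relative to all features the shift at day 3 was -0.18 log2 on both of these scales and 0.02 after quantile normalization.

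**Figure D5:**
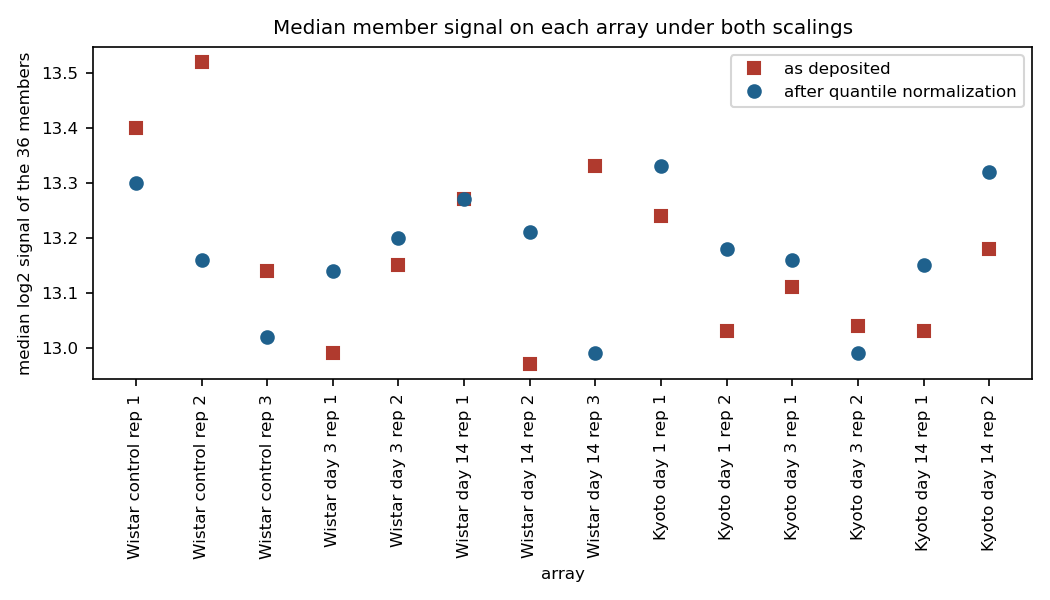
The median log2 signal of the 36 genes is plotted for each of the 14 arrays, as deposited (squares) and after quantile normalization (circles). The deposited medians run from 12.97 to 13.52 and are highest on the array labelled Wistar control 2, while the normalized ones run from 12.99 to 13.33.

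The regulators of the response were taken from a list. Of 38 genes of interleukin-6 and interleukin-1 signalling and acute phase transcription, 24 had a probe set and 14 were tested. By limma 0 were called in any of the 8 comparisons. Of all features, 3.25% were called between the fed strains, 0.0524% from day 1 to day 14 in Kyoto rats and 0% otherwise. By comparison, 0 to 5 of the 14 genes were under an unadjusted p of 0.05. The 5 were between the fed strains (35.7% of the 14, against 14.4% of all features), and 4 were from day 1 to day 14 in Kyoto rats (28.6%, against 10.1%). Between each Wistar feeding time and control there were 0 (10.5% and 5.19% of all). Stat3, Il6 and Socs3 were not among the 24 genes with a probe set, so these counts do not cover them. Il1b, Jak2 and Il1rap were at the floor on all 14 arrays, and Cebpd on 13 of 14. Between the fed strains Il6r, the interleukin-6 receptor, differed by -0.58 ± 0.27 log2 (adjusted p = 0.346) and Cebpa, which encodes C/EBP alpha, by -0.58 ± 0.23 (adjusted p = 0.239). Cebpb, which encodes C/EBP beta, differed by -0.95 ± 0.33 from day 1 to day 14 in Kyoto rats (adjusted p = 0.35), and Jun, a subunit of AP-1, by 1.74 ± 0.47 from day 3 to day 14 (adjusted p = 0.689).

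Of 54 further genes for plasma proteins made by the liver, 23 had a probe set and 21 were tested. The only one called was Igfals, the acid-labile subunit that holds IGF in the circulation, which was 0.90 ± 0.20 log2 higher in fed Kyoto than in fed Wistar rats (1.87-fold, adjusted p = 0.0249). This 1 of 21 is 4.76%, near the 3.25% of all features called in that comparison. Between Wistar day 3 and control Igfals differed by -0.81 ± 0.27 (adjusted p = 0.301), and by -0.61 without the array labelled Wistar control 2. Afm, afamin, a vitamin E carrier, differed by 0.40 ± 0.15 between the fed strains (adjusted p = 0.208). Igfbp1, which binds IGF in the fasted state, differed by -2.18 ± 0.86 from day 1 to day 14 in Kyoto rats (adjusted p = 0.412).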

How the data were processed

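Liver RNA on 14 Affymetrix arrays was compared in 6 groups of strain and feeding day taken from the labels. The authors' deposited values are signal intensities, 1 per probe set and array, and the submitters' processing notes name MAS5 as the tool. Its version, scaling target and filters: not given in the sources used here. The table had 4502 rows; 24 control probe sets and 375 rows with a blank value on some array were left out, some rows being both, which left 4110 rows. The 2% trimmed means of the arrays differed by 25.1%, over a limit of 5%, so log2 intensities were quantile normalized, then floored at the 25th percentile (115). Gene names came from the platform annotation, which can be old, and a gene was represented by its probe set of highest mean signal. The upper 60% of the 3181 features by mean signal (1909) were fitted with limma 3.58.1 in R 4.3.3: group means of all 14 arrays, an intensity trend, 8 comparisons and an F test, with Benjamini-Hochberg adjustment over the 1909 features. The model was tested on simulated data. Fold changes are on the log2 scale after the floor, which understates those of dim genes, and the number of arrays (2 or 3 a group) limits the precision. A lot batch of 1 is given for 11 arrays and none for 3.

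All members are described; those past an adjusted p of 0.05 are named with statistics, else those with the smallest p up to 4, and A2m, Orm1, Hp, Fgb, Crp, C3, Serpina3n, Alb, Ttr and Serpina6 always. Members, classes and lists were chosen with earlier results of these data known. Alternatives were other scalings, floors, filters, probe set rules, variance models, array weights, fits of the compared groups alone, blocks for the lot batch and for the 3 arrays with blank rows, and each array left out. Promoter sequences are RefSeq's (GRCr8), matched by symbol.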

Additional observations from a re-analysis of the deposited data

How the results depend on the processing

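No paired analysis was possible because the labels give no replicate numbers shared between groups. Of 102 named differences of members, 48 changed sign under at least 1 alternative; none of these 48 was called, and no value of changed sign passed the threshold. The call of Orm1 between the fed strains was lost in 12 alternatives. The number of members called between the fed strains, 1, became 0 on the deposited scale, with a common trimmed mean, with no filter on low signals, without the intensity trend and with a lot batch block, where Orm1 was 0.733, 0.719, 0.762, 0.762 and 0.639. It was 0 to 1 with single arrays left out. The count at Wistar day 3 became 1 without the 3 arrays with blank rows, the count by the F test 1 with array weights and 1 without both Wistar control 2 and Kyoto day 1 replicate 1. These last omissions were added after seeing the data. With single arrays left out, the counts over time in Kyoto rats and by the F test moved from 0 only without Kyoto day 1 replicate 2. That fit leaves 1 array in its group. The shares of all features called under the alternatives in this paragraph are not given here, so these counts cannot be set beside them.

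Median differences of the members on the deposited scale were -0.357 (Wistar day 3 minus control), -0.199 (day 14 minus control), 0.13 (day 14 minus day 3), 0.16, 0.0187 and -0.113 (Kyoto day 3 minus 1, 14 minus 1 and 14 minus 3), -0.09 (fed strains) and -0.251 (interaction). With a common trimmed mean they were -0.115, -0.111, 0.0353 (Kyoto day 3 minus 1), -0.0472 (Kyoto day 14 minus 3), -0.105 (fed strains) and -0.0278 (interaction). With blank-row arrays as a block they were -0.0522 (Wistar day 3 minus control) and -0.0594 (Kyoto day 3 minus 1), and without those arrays 0.0116 (Wistar day 14 minus 3). The cause was not tested. With single arrays left out they ran, in the order of the deposited scale, from -0.0619 to 0.00564, -0.0803 to 0.00191, -0.0523 to 0.0112, -0.0494 to -0.00436, -0.0395 to 0.0176, -0.00412 to 0.109, -0.0592 to 0.0177 and -0.0182 to 0.086. The floor limits what these arrays can show for A2m.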

Other observations

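Some probe sets carry several gene symbols, among them a member's, and belong to no single gene. The 3 probe sets annotated to both Srprb and Tf read 13.25 to 14.72 log2, and the one annotated to C4b and C4a 11.55 to 12.77. The probe set shared by Kng1, Kng2l1 and Kng2 read 11.53 on Kyoto day 1 replicate 1, its lowest value, and up to 13.02 elsewhere. Of the probe sets shared by Mug1 and its relatives, 2 were lowest on Kyoto day 3 replicate 1, at 9.76 and 9.33, where the probe set of Mug1 alone was also lowest.

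The probe set annotated to Mt1f, Ttr and Mt1, singled out after its values were seen, spread far more than Ttr. It read 8.26, 10.53 and 10.60 in Wistar controls, 13.99 and 12.18 at Wistar day 3, 13.16, 12.88 and 10.36 at Wistar day 14, and 13.90 to 14.29 on the 6 Kyoto arrays. All fed Wistar arrays except Wistar day 14 replicate 3 lay above the controls. In a fit with every probe set as a feature, limma gave 3.29 ± 0.97 log2 for Wistar day 3 minus control (adjusted p = 0.361) and 1.53 ± 0.72 between the fed strains (adjusted p = 0.471). The signal cannot be assigned to 1 of the 3 genes here.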
